A study of Mus musculus with 8 samples.

Results

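Kupffer cells are the resident macrophages of the liver, and 371 of them are described here. They were the cells that the authors' clustering of immune cells, in its multilevel setting, placed in clusters 1, 6 and 7. They make up 371 of 651 immune cells and of 3491 cells in all, with 113 cells in the male and 258 in the female pool. Clusters 1, 6 and 7 held 117, 90 and 164 cells. The 280 other immune cells include 2 further clusters (3 and 4) that the study also counts as Kupffer cells and that were left aside. The authors' own names for the 371 cells were KupfferCells for 363 and sKC for 8.

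The study dissociated livers of healthy adult mice of both sexes, sorted single cells into plates and sequenced them by Smart-seq2, a full-length method that reads 1 library per cell and uses no molecular identifiers. The mice were C57BL6/J animals or carried 1 or more heterozygous fluorescent reporters (*Pdgfrb*-GFP, *Pdgfra*-H2bGFP, *Acta2*-GFP, *Cspg4*-dsRED or *Cldn5*-GFP), and were between 8 weeks and 1 year old. Macrophages were sorted with an antibody to CD68, endothelial cells with antibodies to CD31 or VE-cadherin or on the *Cldn5* reporter, mesenchymal cells on the *Pdgfra*, *Pdgfrb* and *Acta2* reporters or with an antibody to PDGFRα, cholangiocytes with an antibody to EPCAM, and hepatocytes without selection, so that cell numbers follow the sort. The livers were not perfused, so blood cells may be among them. The series lists 1 male and 1 female pool for each class (immune, endothelial, mesenchymal and epithelial cells), and the labels of cells name no mice, so a pool stands for 1 replicate. The comparison groups were 1106 endothelial, 1337 mesenchymal and 397 epithelial cells, and the 63 male cells of immune cluster 2 and 58 male cells of immune cluster 5, which the study describes as myeloid monocytic cells and B cells.

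Kupffer cells sit in the sinusoids, where blood from the gut passes slowly. They are known for taking up particles, bacteria and aged red blood cells through complement, scavenger and Fc receptors, for recycling the iron of haem, and for digesting the cargo in lysosomes. In the mouse they arise in the embryo and renew themselves in place with little input from blood monocytes. Their identity is set by the lineage factor PU.1 (encoded by *Spi1*) together with liver-dependent factors such as LXR-alpha (encoded by *Nr1h3*).

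Each Kupffer cell had between 48984 and 904090 gene counts, with a median of 212929 in male and 341075 in female cells. The pools differed in more than depth. After thinning each cell to 50000 counts the median number of genes was 1779 in male and 3726 in female cells, and the median share of ERCC spike-in counts was 4.99% and 1.06%. There were 6 plates with at least 5 Kupffer cells, of which 4 were male (21, 46, 38 and 6 cells) and 2 female (185 and 73 cells), and none of the 22 plates held both sexes. Sex, plate and mouse can therefore not be told apart in these cells.

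The 4 marker genes named for Kupffer cells were abundant in these cells and near absent from the other classes. *Clec4f*, a C-type lectin that binds galactose-bearing sugars and is restricted to Kupffer cells in the mouse, stood at 4763, 5168, 5296 and 6070 CPM (counts per 1000000 counts of the sum) on the 4 male plates and at 4726 and 8471 CPM on the 2 female plates. *Vsig4*, a receptor for complement C3 fragments, stood at 2575, 3039, 3282 and 2358 CPM on male and at 2387 and 2439 CPM on female plates. *Folr2*, a folate receptor of resident macrophages, stood at 1725, 2067, 2405 and 1890 CPM on male and at 1467 and 1968 CPM on female plates. These 3 genes varied by less than 2-fold among plates, and male and female plates overlapped. *Marco*, a scavenger receptor for bacteria and particles, was less even, with 414, 415, 1067 and 131 CPM on male and 876 and 973 CPM on female plates.

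Every one of the 371 cells held at least 1 count of *Clec4f*, *Vsig4* and *Folr2*, so that each share was 100% with an exact 95% binomial interval from 99.0% to 100%. *Marco* was counted in 83.3% of cells (interval 79.1% to 86.9%), with 49.6% of male and 98.1% of female cells. A count alone is a weak criterion here, because *Clec4f* was also counted in 21.4% of endothelial, 17.6% of mesenchymal and 20.2% of epithelial cells. The levels were far apart. The median of the 4 markers in endothelial, mesenchymal and epithelial cells was 0.609%, 0.184% and 0.396% of their Kupffer cell level. It differed between the pools, from 0.370%, 0.0547% and 0.234% in male to 0.839%, 0.412% and 1.74% in female cells of these classes, and was highest for *Clec4f* in female epithelial cells, at 3.36% of the female Kupffer cell level. Intervals on shares and on counts cover counting error only.

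**Figure D1:**
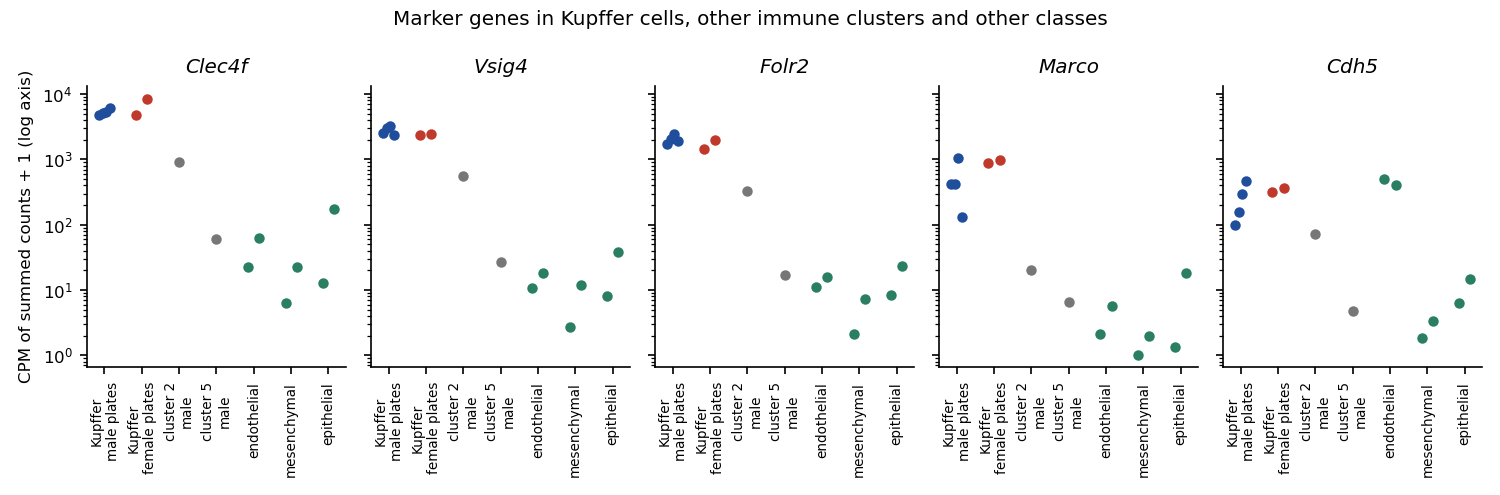
CPM of summed counts plus 1, on a log axis, for 4 Kupffer cell markers and *Cdh5*. Points are plates for Kupffer cells (blue male, red female), the male pool for immune clusters 2 and 5 (grey), and the male and female pools, in this order, for the other classes (green). The markers stand highest on the Kupffer cell plates. *Cdh5* runs from 98.6 to 458 CPM on these plates and stands at 504 and 411 CPM in the male and female endothelial pools.

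Counts were summed over cells within each pool, and Kupffer cells were compared with the other classes by the quasi-likelihood test of edgeR on 8 sums (2 Kupffer cell sums and 2 for each of the 3 other classes). A gene is called here at an adjusted p below 0.05 with a log2 fold change of 1 or more in size. The authors drew the classes and clusters from these same counts, so the calls describe the cells and are no independent evidence. Of 23477 genes tested, 485 (2.07%) were called higher in Kupffer cells than in each of the 3 other classes, and 567 (2.42%) lower than in each. Against the mean of the 3 classes, 1726 genes were called higher and 1746 lower, and the median log2 fold change over all genes tested was -0.21. With 2 pools per class the standard errors were wide. *Marco* had a log2 fold change of 8.67 ± 1.32 (SE) against the mean and yet was not called against each class. The counts rested on single pools, since 275 genes were called higher than in each class without the male endothelial pool and 273 without the female one, and 1104 were called lower than the mean without the male Kupffer cells.

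The 10 genes that stood highest against the other classes were *Gm5150*, *Fpr1*, *Tifab*, *Cd207*, *Pira2*, *Treml4*, *P2ry13*, *RP23.425N17.3*, *Cd300e* and *RP23.425N17.5*, with log2 fold changes from 10.82 to 9.97. Several of them encode receptors of myeloid cells. *Fpr1*, the receptor for formylated bacterial peptides, stood at 359 CPM for male and 384 CPM for female Kupffer cells and at 0.48, 0.12 and 0.19 CPM in endothelial, mesenchymal and epithelial cells. *P2ry13*, a receptor for ADP, stood at 268 and 396 CPM against at most 0.49 CPM in the other classes. *Cd207* encodes langerin, a C-type lectin better known from Langerhans cells. It stood at 951 CPM for male and 283 CPM for female Kupffer cells, against 67.8 CPM in immune cluster 2 and 8.97 CPM in cluster 5. Its promoter (chr6:83677808-83678107) lies on the same strand of chromosome 6 as that of *Clec4f* (chr6:83656067-83656366). *Tifab*, an adaptor that dampens signals from TRAF6, stood at 244 and 256 CPM and also at 203 CPM in cluster 2.

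The gene of PU.1, *Spi1*, was among the genes called higher, and promoters were searched on both strands for GAGGAAGT, a core of the PU.1 consensus. RefSeq promoter windows of the build GRCm38.p6, from 250 bases before to 50 bases after each start, were used. The motif was present in at least 1 window of 13.2% of the genes called higher with a window (49 of 370), of 3.60% of the genes called lower (14 of 389) and of 3.74% of all tested genes with a window. None of the 5 windows of the 4 markers held it, and 1 of 8 windows did among the 10 genes above (*Pira2*). Of 69 genes on the lists described below that were called higher and had a window, 7 held it (*C1qc*, *Elmo1*, *Fcgr4*, *Ctsc*, *Ctss*, *Gusb* and *Tlr1*). A match describes the letters and is not a binding site. *Clec4f*, a marker without the motif, and 5 called genes with it, chosen to span complement, Fc receptor, protease and sensing genes, are printed 5′ to 3′ in the direction of the gene, in lower case, with the motif in capitals (GAGGAAGT, or ACTTCCTC where it lies on the other strand).
Clec4f, chr6:83656067-83656366, minus strand: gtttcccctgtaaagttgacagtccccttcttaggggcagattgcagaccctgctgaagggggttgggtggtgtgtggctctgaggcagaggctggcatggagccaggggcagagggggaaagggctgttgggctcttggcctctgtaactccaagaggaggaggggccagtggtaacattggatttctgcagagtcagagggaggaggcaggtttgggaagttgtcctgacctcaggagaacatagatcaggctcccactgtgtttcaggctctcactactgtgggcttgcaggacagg
C1qc, chr4:136892865-136893164, minus strand: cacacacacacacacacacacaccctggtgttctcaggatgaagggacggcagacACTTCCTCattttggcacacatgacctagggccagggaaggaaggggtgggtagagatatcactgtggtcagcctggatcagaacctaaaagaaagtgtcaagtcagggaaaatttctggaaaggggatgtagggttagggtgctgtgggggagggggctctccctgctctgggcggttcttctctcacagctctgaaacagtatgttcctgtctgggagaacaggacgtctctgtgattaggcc
Fcgr4, chr1:171018676-171018975, plus strand: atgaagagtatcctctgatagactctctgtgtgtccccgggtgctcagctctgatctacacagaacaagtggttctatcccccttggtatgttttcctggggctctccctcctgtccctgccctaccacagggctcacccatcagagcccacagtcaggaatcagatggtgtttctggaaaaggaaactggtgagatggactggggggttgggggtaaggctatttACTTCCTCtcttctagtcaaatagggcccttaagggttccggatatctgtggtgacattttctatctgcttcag
Ctss, chr3:95526536-95526835, plus strand: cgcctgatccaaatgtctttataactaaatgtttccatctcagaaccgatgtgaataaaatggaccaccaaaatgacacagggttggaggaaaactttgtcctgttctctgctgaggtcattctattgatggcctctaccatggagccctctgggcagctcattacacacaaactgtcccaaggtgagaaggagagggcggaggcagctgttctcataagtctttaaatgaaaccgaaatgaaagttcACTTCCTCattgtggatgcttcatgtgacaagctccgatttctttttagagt
Tlr1, chr5:64933509-64933808, minus strand: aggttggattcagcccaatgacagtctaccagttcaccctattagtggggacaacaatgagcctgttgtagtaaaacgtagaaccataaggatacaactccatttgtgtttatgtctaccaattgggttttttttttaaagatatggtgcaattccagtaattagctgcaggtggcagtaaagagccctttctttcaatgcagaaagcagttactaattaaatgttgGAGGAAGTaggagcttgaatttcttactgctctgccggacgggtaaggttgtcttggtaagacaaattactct
Pira2, chr7:3845002-3845301, minus strand: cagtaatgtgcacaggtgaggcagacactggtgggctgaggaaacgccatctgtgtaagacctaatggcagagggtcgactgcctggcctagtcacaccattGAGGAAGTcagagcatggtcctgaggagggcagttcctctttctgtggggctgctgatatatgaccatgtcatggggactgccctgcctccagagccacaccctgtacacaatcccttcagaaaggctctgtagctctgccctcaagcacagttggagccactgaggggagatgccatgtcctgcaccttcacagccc

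The 18 identity genes were those by which Kupffer cells are commonly recognised. Their median log2 fold change against the mean of the other classes was 7.51, against -0.21 for all genes tested. In all, 14 were called higher than in each class and none lower. *Cd5l*, a secreted protein that keeps macrophages alive and binds lipids, stood at 5594 CPM for male and 5174 CPM for female cells. *Timd4*, a receptor for phosphatidylserine on dying cells and a mark of embryo-derived Kupffer cells, stood at 646 and 732 CPM and had the highest log2 fold change of the list, 9.58 ± 0.92 (SE). *Csf1r*, the receptor for the growth factor that macrophages need to survive, stood at 5246 and 4368 CPM, and *Adgre1*, which encodes F4/80, at 1372 and 1707 CPM. *Cd68*, the target of the sort, stood at 1465 and 1332 CPM in Kupffer cells, and at 993 CPM in cluster 2. The 4 genes not called against each class were *Marco*, *Clec1b*, *Cdh5* and *Mrc1*. The last 3 were also abundant in endothelial cells.

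Among 20 transcription factors of macrophages, 7 were called higher and none lower, with a median of 2.89. The lineage factor *Spi1* stood at 1175 and 912 CPM in the male and female pools. Over both pools it was at no more than 3.46 CPM in the 3 other classes, with 8.13 CPM in female epithelial cells. In male cells of immune clusters 2 and 5 it stood at 649 and 415 CPM. *Nr1h3* stood at 831 and 1222 CPM, with a log2 fold change of 5.08 ± 0.50 (SE). *Spic*, the factor induced by haem that red pulp and bone marrow macrophages also use, stood at 167 and 138 CPM. *Irf7*, *Irf8* and *Rxra* were also among the called members. *Id3*, which is known for its role in Kupffer cell identity, was found at 611 and 605 CPM but at 1316 CPM in endothelial and 748 CPM in mesenchymal cells, and *Id1* at 105 and 93.9 CPM against 234 CPM in endothelial cells. Neither was called against each class or against their mean, and *Id3* was called higher than in epithelial cells alone (log2 fold change 1.74 ± 0.39, SE).

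**Figure D2:**
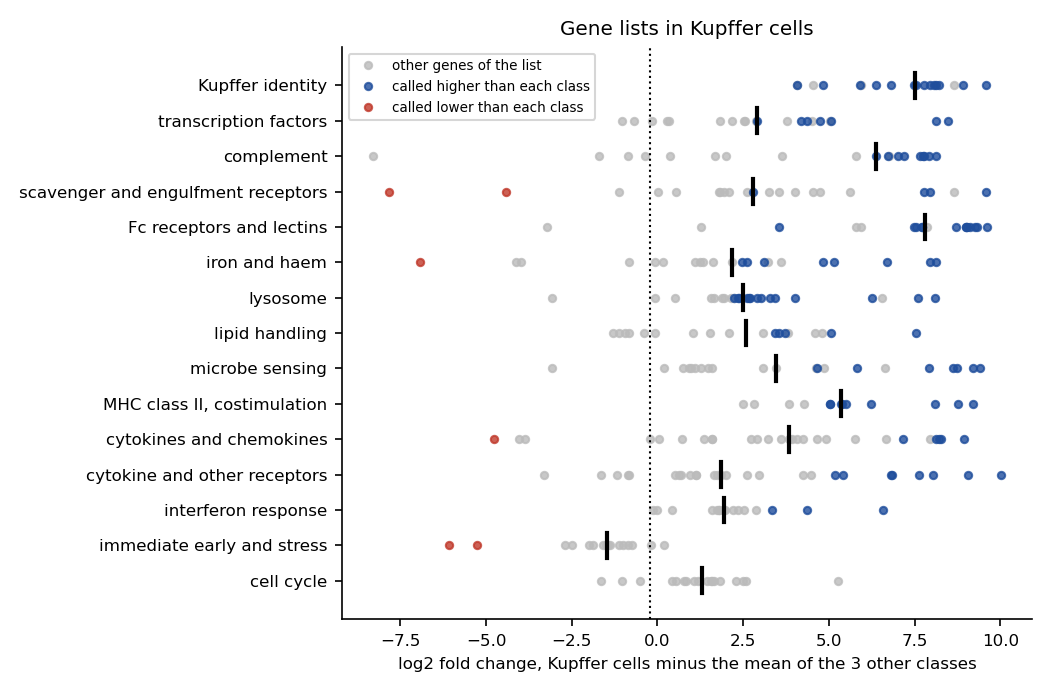
Each point is a gene of a list, placed by its log2 fold change in Kupffer cells minus the mean of endothelial, mesenchymal and epithelial cells. Blue points were called higher and red points lower than in each class, black bars are list medians, and the dotted line is the median of all genes tested (-0.21). Identity, complement and Fc receptor genes lie farthest to the right, and immediate early and stress genes lie left of the dotted line.

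Of 19 complement genes, 9 were called higher and none lower, with a median of 6.39. The 3 chains of C1q, which starts the classical pathway, were among the strongest genes of these cells. *C1qa* stood at 3790 and 2609 CPM, *C1qb* at 4275 and 3227 CPM and *C1qc* at 4098 and 2313 CPM in male and female cells. *Cfp*, properdin of the alternative pathway, stood at 2503 and 2868 CPM, *Fcna*, a ficolin of the lectin pathway, at 3302 and 2789 CPM, and *C6*, a component of the membrane attack complex, at 1737 and 1056 CPM. The receptors *C3ar1* and *C5ar1* were also called. The central component *C3* stood at 51.6 and 108 CPM, below the 1483 CPM of mesenchymal and 995 CPM of epithelial cells. *C2* stood at 281 and 369 CPM in male and female Kupffer cells, against 429 and 399 CPM in the mesenchymal pools. *C4b* stood at 818 and 687 CPM, against 1018 and 722 CPM.

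Of 21 scavenger and engulfment genes 4 were called higher (*Cd163*, *Cd68*, *Timd4* and *Elmo1*), 2 were called lower, and the median was 2.78. *Cd163*, which takes up haemoglobin bound to haptoglobin, stood at 608 and 980 CPM, with 315, 810, 363 and 1619 CPM on the male plates and 1000 and 828 CPM on the female plates. *Axl* and *Mertk*, receptors for the bridging proteins that coat dying cells, stood at 1733 and 1707 CPM and at 290 and 494 CPM, while *Tyro3*, the other receptor of that family, was at 0.075 and 0 CPM. Of the genes of the bridging proteins, *Gas6* stood at 46.4 and 65.7 CPM against 767, 2214 and 1192 CPM in endothelial, mesenchymal and epithelial cells and was called lower than in each, with a log2 fold change of -4.42 ± 0.49 (SE). *Pros1* stood at 57.1 and 121 CPM against 469, 273 and 106 CPM in the same classes and was called lower than in endothelial cells only.

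Fc receptors and lectins formed the list with the highest median, 7.79. Of its 18 genes, 13 were called higher and none lower. The activating IgG receptors *Fcgr1*, *Fcgr3* and *Fcgr4* stood at 510, 969 and 822 CPM in male and 507, 661 and 586 CPM in female cells, and at no more than 3.53 CPM in the other classes over both pools. Immune cluster 2 held 366, 551 and 404 CPM of them. In male cells 2 of the 18 genes stood 4-fold above that cluster and 1 below, with a median log2 ratio of 0.73. Of all genes compared there, 4.73% stood above and 18.6% below. The inhibitory receptor *Fcgr2b* went the other way, with 12.1 CPM over both pools against 1695 CPM in endothelial cells, and was called lower than in endothelial cells (log2 fold change -6.83 ± 1.15, SE). On single plates *Fcgr2b* ranged from 2.90 to 60.3 CPM. *Clec7a* (dectin-1, for fungal glucans) stood at 450 and 590 CPM and *Clec4n* (dectin-2) at 410 and 264 CPM. *Siglec1*, a sialic acid receptor, ranged from 162 to 1985 CPM among male plates and stood at 450 and 1083 CPM on the female plates. *Cd209f* was patchy, at 1.31, 0, 29.3 and 0 CPM on male and 62.9 and 16.2 CPM on female plates.

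Of 21 iron and haem genes, 8 were called higher and 1 lower, with a median of 2.18. The called members cover the path from haem to export. *Hmox1*, which opens the haem ring, stood at 1230 and 1371 CPM, with plates between 1076 and 1431 CPM. *Blvrb* and *Blvra*, the biliverdin reductases of the next step, stood at 872 and 582 CPM and at 205 and 177 CPM. *Slc11a1*, a metal transporter of the phagosome, stood at 815 and 1345 CPM, and *Slc40a1*, ferroportin, the exporter of iron, at 3212 and 2876 CPM. The ferritin subunits *Fth1* and *Ftl1* were high in all classes and were not called against each class. *Heph*, a copper oxidase that loads iron onto transferrin, was at 0.15 and 0.098 CPM and was called lower.

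The lysosome list had 14 of 24 genes called higher, none lower, and a median of 2.49. Between the pools the log2 difference (female minus male) of the 14 called genes lay between -0.55 for *Ctss* and 0.71 for *Gusb*. *Tfeb*, a transcription factor of lysosome genes that was not called, stood at 16.1 CPM in males and 101 CPM in females. *Ctsb* stood at 5719 and 5359 CPM, *Ctsd* at 3496 and 3282 CPM and *Lgmn*, the asparagine-specific protease, at 2953 and 3250 CPM. *Ctss* and *Ctsc*, proteases of immune cells, had log2 fold changes of 8.11 ± 0.52 (SE) and 6.26 ± 0.37 (SE), whereas *Ctsl* stood at 448 and 598 CPM against 1074 CPM in endothelial cells. *Cd63*, a membrane protein of late endosomes, stood at 23.7 and 8.79 CPM, below the 483 CPM of mesenchymal and 204 CPM of epithelial cells. Among 18 lipid genes, 5 were called higher and none lower, with a median of 2.59. They were *Cd5l*, *Nr1h3*, *Lipa*, *Soat1* and *Apobec1*. *Lpl*, lipoprotein lipase, stood at 1260 and 1612 CPM but also at 643 CPM in mesenchymal cells, and *Apoe* at 6149 and 4299 CPM with no fewer than 2396 CPM in any other class.

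Of 21 genes for the sensing of microbes, 7 were called higher and none lower, with a median of 3.46. They were *Tlr1*, *Tlr6*, *Tlr7*, *Tlr8*, *Tlr13*, *Cd14* and *Nlrp3*. *Cd14*, the coreceptor for lipopolysaccharide, stood at 250 and 432 CPM, whereas *Tlr4* itself was modest, at 61.6 and 85.5 CPM against 20.2 CPM in endothelial cells. *Tlr8* was counted in 177 of the 371 cells. It stood at 110, 71.0, 100 and 1213 CPM on the male plates, the last with 6 cells, and at 43.3 and 75.0 CPM on the female plates. *Tlr5* was at 0 CPM for male and 0.065 CPM for female cells.

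MHC class II and costimulation genes were called higher for 9 of 13 members, with a median of 5.34 and none called lower. The presentation genes *H2-Aa*, *H2-Ab1*, *H2-Eb1* and *Cd74* stood at 1751, 1738, 1505 and 3627 CPM in male cells and at 1785, 2012, 1447 and 2708 CPM in female cells. In male cells these were below the B cells of cluster 5, where they stood at 3710, 3459, 3438 and 5707 CPM. Male plate 1 was the lowest, with 845 CPM of *H2-Aa* against 1924 to 2278 CPM on the other male plates. *Ciita*, the master regulator of these genes, stood at only 22.2 and 46.4 CPM in Kupffer cells and at 475 CPM in cluster 5. *Cd86* was the costimulatory gene with the highest level, at 292 and 499 CPM.

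Of 27 cytokine and chemokine genes, 5 were called higher and 1 lower, with a median of 3.83. The called chemokines were *Ccl5*, *Ccl6*, *Ccl24* and *Cxcl13*, joined by *Il1b*. *Ccl6* stood at 917 and 493 CPM and *Ccl24*, which attracts eosinophils, at 487 and 289 CPM. *Cxcl13*, the chemokine that draws B cells, stood at 46.7, 353, 245 and 46.4 CPM on male and 220 and 122 CPM on female plates. *Cxcl1*, a neutrophil chemokine, stood at 2.79 and 0.71 CPM and was called lower than in each class. The inflammatory cytokines *Tnf* and *Il6* were low, *Tnf* at 11.8 CPM for the male and 51.2 CPM for the female pool and *Il6* at 0.15 and 6.63 CPM. *Il10*, which restrains inflammation, stood at 0.30 CPM in the male pool and at 11.3 and 26.3 CPM on the female plates. *Igf1* stood at 911 and 570 CPM, above the 250 CPM of epithelial cells, and *Bmp2* at 2.64 and 3.63 CPM against 697 CPM in endothelial cells.

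Among 27 receptors, 8 were called higher and none lower, with a median of 1.86. Among the called members were *Csf1r*, *Csf2ra*, *Csf2rb*, *Il10ra*, *Cx3cr1*, *P2ry13* and *P2ry6*. *Cx3cr1*, a receptor of monocytes, came from few cells. It was counted in 59 of the 371 cells, and the 5 cells with most counts held 96.6% of them. The monocyte receptor *Ccr2* stood at 0.57 and 4.15 CPM. *Acvrl1*, a receptor for BMP9 and BMP10, stood at 263 and 376 CPM against 121 CPM in endothelial cells, and its partner *Eng* at 48.4 and 51.7 CPM against 3596 CPM. Interferon response genes were called higher for 3 of 16 members (*Irf7*, *Mx1* and *Oas1a*) and lower for none, with a median of 1.95. *Irf7* stood at 1244 and 1291 CPM. Of the 18 genes of the cell cycle list (median 1.31), none was called higher or lower than in each class, and 2 were called higher against the mean of the classes. The choice of clusters bears on this, since the 18 genes summed to 305 CPM in the 371 cells and to 3587 CPM in the 48 cells of immune cluster 4, which was left aside. *Mki67*, which marks dividing cells, stood at 11.6 and 8.51 CPM and was counted in 52 cells, of which 9 were above 100 CPM.

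*Cdh5* encodes VE-cadherin, an adhesion protein of endothelial junctions, and was measured in Kupffer cells at 98.6, 155, 299 and 458 CPM on male and at 311 and 368 CPM on female plates. Endothelial cells held 504 CPM for the male and 411 CPM for the female pool. The log2 fold change against endothelial cells was -0.47 ± 0.57 (SE), and the gene was called in neither direction. It was counted in 92.7% of Kupffer cells and 95.1% of endothelial cells, against 5.46% of mesenchymal and 15.6% of epithelial cells, but the pools differed, with 77.9% of male and 99.2% of female Kupffer cells. The median level per cell was 25.5 CPM for male and 270 CPM for female cells. An antibody to this same protein was used to sort part of the endothelial cells.

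The endothelial list held 19 genes, and *Cdh5* was not among them. Against endothelial cells, 887 of all genes tested were called higher in Kupffer cells (3.78%) and 1262 lower (5.38%), and 16 of the 19 were called lower. Over all genes the 2 counts were 395 and 891 without the male and 400 and 793 without the female endothelial pool. The 19 genes had a median of 0.941% of the endothelial level over both pools in male and 0.812% in female Kupffer cells. *Erg* was highest for male cells (29.2%) and *Stab2* for female cells (24.1%). *Cdh5*, over both pools, stood at 62.2% of its endothelial level. By pool it stood at 200 against 504 CPM in male and at 318 against 411 CPM in female cells. The part of RNA from endothelial cells in these values was not tested. *Kdr*, *Ptprb* and *Esam* stood at 15.6, 28.6 and 2.98 CPM in Kupffer cells, against 1650, 3580 and 906 CPM. The 3 members not called lower were *Erg*, *Stab2* and *Dnase1l3*. *Erg* came from few cells, since 5 cells held 86.9% of its counts. *Stab2*, a hyaluronan receptor, stood at 246 and 426 CPM against 1768 CPM, and its relative *Stab1* at 98.6 and 116 CPM against 1926 CPM.

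Further genes were shared with endothelial cells. *Mrc1*, the mannose receptor, stood at 675 and 956 CPM in Kupffer cells and at 1408 and 845 CPM in the endothelial pools (log2 fold change -0.10 ± 0.64, SE). *Clec1b*, the receptor for podoplanin, stood at 911 and 731 CPM against 260 and 144 CPM, and *Msr1*, a scavenger receptor, at 484 and 494 CPM against 231 and 198 CPM. *Adcy4*, an adenylate cyclase, stood at 294 and 410 CPM against 243 and 368 CPM, and *Serpina3g*, a protease inhibitor, at 203 and 331 CPM against 531 and 519 CPM. None of the 5 was called against endothelial cells. Genes of hepatocytes were also counted in Kupffer cells, and the source of these counts was not tested. The 16 hepatocyte genes had a median of 5.39% of the epithelial level in male and 2.33% in female Kupffer cells. For the 13 genes of stellate cells and fibroblasts it was 0.188% and 0.361% of the mesenchymal level. The epithelial and mesenchymal levels here are over both pools, and the epithelial cells were 358 male and 39 female.

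**Figure D3:**
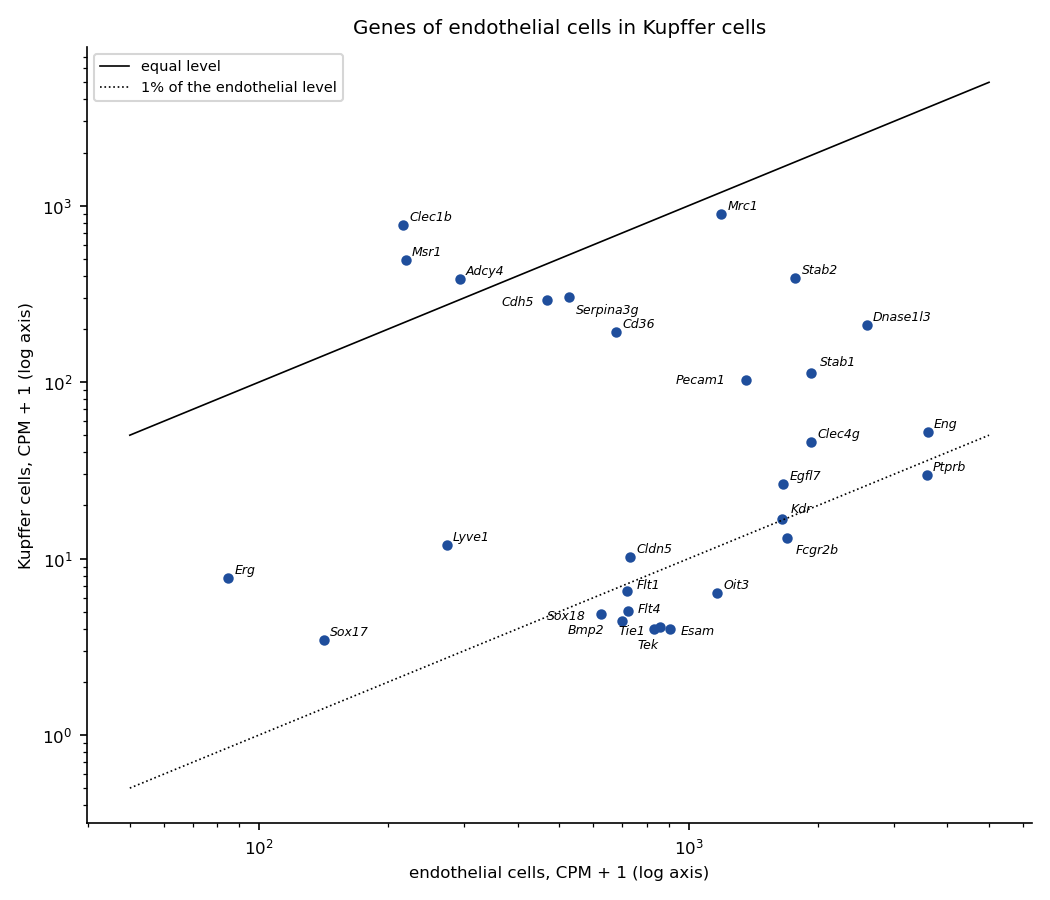
CPM plus 1 in Kupffer cells against CPM plus 1 in endothelial cells, both on log axes and over both pools, for the endothelial gene list and 9 further genes named in the text. *Cdh5*, *Mrc1*, *Adcy4* and *Serpina3g* lie within about 2-fold of the line of equal level, *Clec1b* and *Msr1* lie on the Kupffer cell side of it, and *Kdr*, *Ptprb*, *Esam* and *Tie1* lie near or below 1% of the endothelial level.

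Immune clusters 2 and 5 were compared with Kupffer cells in the male pool only, since the female pool held 2 and 0 of their cells. With 1 pool a group there is no test, and a gene is counted at a 4-fold difference with a pseudocount of 1 CPM and at least 10 CPM in the higher group. Of 10438 genes at that level, 494 (4.73%) stood 4-fold above cluster 2 and 1940 (18.6%) 4-fold below it. Of the 18 identity genes 8 stood above and none below, with a median log2 ratio of 1.88, and of the 19 complement genes 7 stood above and 2 below. *Cd163* stood at 608 CPM in male Kupffer cells (exact Poisson interval 599 to 618) against 60.4 CPM (57.2 to 63.7), and *Siglec1* at 790 CPM (779 to 801) against 94.1 CPM (90.1 to 98.2). These intervals do not cover the spread between plates. On male plate 1, which held 37 of the 63 cells of cluster 2, *Siglec1* stood at 162 against 116 CPM and *Cd163* at 315 against 92.8 CPM, both under 4-fold. The 10 genes highest above cluster 2 were *Adcy4*, *Serpina3g*, *Cd207*, *Cd163*, *C4b*, *Siglec1*, *Tmem26*, *Fcnaos*, *Lrp5* and *Fcna*, with *Fcnaos* named as antisense to *Fcna*, so that their reads cannot be told apart without strand. Of these 10 genes, 2 (*Adcy4* and *Serpina3g*) stood 4-fold above cluster 2 on male plate 1, 10 on male plate 2 and 9 on male plate 3.

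The genes farthest below cluster 2 were *Ccr2*, *Sema4d*, *St8sia4*, *Lat2*, *Tctn1*, *S100a6*, *Ahnak*, *Socs3*, *Ccl4* and *Spint2*. *Ccr2* stood at 0.57 CPM in Kupffer cells (0.32 to 0.93) and 302 CPM in cluster 2 (294 to 309). This held on each of the 3 plates with both, where the log2 ratio was -6.85, -8.37 and -8.11. *Ahnak* behaved alike, at -3.44, -7.09 and -6.17. Against the other lists, 15 of 17 immediate early and stress genes stood 4-fold below cluster 2 with a median log2 ratio of -2.99, beside 18.6% of all genes. Of 27 cytokine genes, 8 stood below, and 4 stood above (*Ccl5*, *Ccl24*, *Cxcl9* and *Cxcl13*), where 4.73% of all genes did. Among the 8 below were *Ccl3* (35.8 against 577 CPM), *Ccl4* (12.9 against 508 CPM) and *Il1b* (81.3 against 434 CPM).

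Cluster 2 was a mixed group, and part of it carried the Kupffer cell genes. The authors' community clustering divided its 63 male cells into 38 and 16 cells named Monocytes (community clusters 2 and 7) and 9 cells named sKC (community cluster 4). The 9 sKC cells had 3806 CPM of *Clec4f*, 2326 CPM of *Vsig4* and 1364 CPM of *Folr2*, with 0 CPM of *Ccr2*, whereas the 38 cells of community cluster 2 had 229 CPM of *Clec4f*, 391 CPM of *Ccr2* and 1218 CPM of *Cx3cr1*, and the 16 cells of community cluster 7 had 19 CPM of *Clec4f* and 4157 CPM of *Siglech*, a gene of plasmacytoid dendritic cells. Cell by cell there was a wide gap, since 11 of the 63 cells had at least 1938 CPM of *Clec4f* and the 52 others no more than 143 CPM. Of these 11 cells, 9 were the sKC cells and 2 (1938 and 3803 CPM) were in community cluster 2.

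The sKC name also crossed the boundary of the cells described here, as 7 male and 1 female Kupffer cells carried it. The 7 male cells had 4075 CPM of *Clec4f* and 1664 CPM of *Folr2*, close to the 9 in cluster 2. Of 3 immediate early genes, *Fos* stood at 1009 CPM in the 8 cells of the Kupffer clusters and 1418 CPM in the 9 cells of cluster 2, *Jun* at 64.4 and 1113 CPM, and *Egr1* at 43.2 and 322 CPM. Without the cells of community cluster 4 on either side, an alternative added after the values were seen, 769 genes in place of 494 stood 4-fold above cluster 2. The ratio to cluster 2 differed between plates. On male plate 1, which held 21 Kupffer cells and 37 cells of cluster 2 with all 9 sKC cells among them, the log2 ratio of *Clec4f* was 1.68, and on male plates 2 and 3 it was 7.27 and 6.71. Among male Kupffer cells, 6 of 113 had less than 1000 CPM of *Clec4f*, the lowest 54.3 CPM, as did 1 of 258 female cells.

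**Figure D4:**
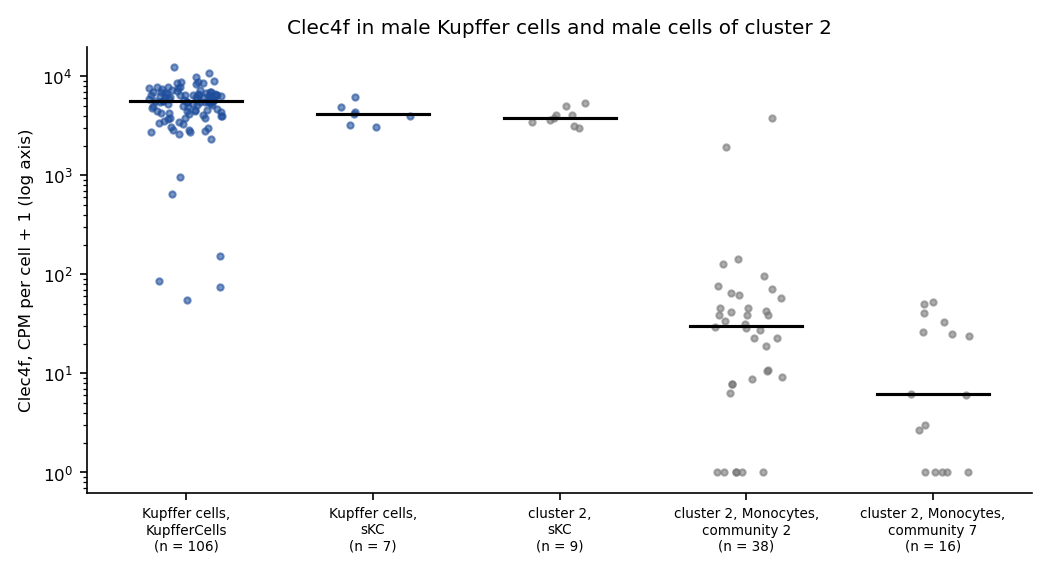
CPM of *Clec4f* per cell plus 1, on a log axis, for male Kupffer cells (blue) and male cells of immune cluster 2 (grey), each divided by the authors' names. Points are cells and black bars are medians. The 9 sKC cells of cluster 2 stand with the Kupffer cells, and 52 cells of cluster 2 stand at or below 143 CPM.

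Against the B cells of cluster 5 the differences were larger. Of 10318 genes at 10 CPM or more, 1883 (18.2%) stood 4-fold above and 2374 (23%) 4-fold below. Of the 18 identity genes 17 stood above, as did 17 of 21 scavenger genes and 16 of 24 lysosome genes. Among the genes with the highest ratios were *Axl*, *Slc7a8*, *Clec4n*, *Cadm1*, *Slc11a1*, *Slc40a1*, *Hpgd*, *Clec7a* and *Abcc3*. *Axl* stood at 1733 CPM (1717 to 1749) against 6.70 CPM (5.45 to 8.14). At the other end were, among others, *Gimap3*, *Ccr7*, *Ms4a1*, *Btla*, *Cxcr5*, *Fcmr*, *Blk*, *Ripor2* and *Hvcn1*. *Ms4a1*, the B cell antigen CD20, stood at 3.66 CPM (2.97 to 4.46) against 1203 CPM (1186 to 1221). Of the 13 MHC class II and costimulation genes 1 stood 4-fold above and 2 below. Their median log2 ratio was -0.65, against -0.35 for all genes compared. The 10 B cell genes summed to 203 CPM for male and 59.0 CPM for female Kupffer cells, against 18357 CPM in cluster 5.

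Immediate early and stress genes, which dissociation of tissue is known to induce, had a lower sum in Kupffer cells than in each other class. The sum was 1659 CPM in male and 3821 CPM in female Kupffer cells. It was 7849, 13026 and 8327 CPM in endothelial, mesenchymal and epithelial cells over both pools. Of 17 genes none was called higher and 2 were called lower than in each class (*Egr1* and *Socs3*), and the median log2 fold change was -1.47, the lowest of the functional lists. *Egr1* stood at 17.1 and 23.3 CPM against 561, 1636 and 1116 CPM in endothelial, mesenchymal and epithelial cells. *Socs3*, a brake on cytokine signals, stood at 1.58 and 5.12 CPM against 427, 313 and 118 CPM. The level varied strongly by plate. The sum of the 17 genes was 3847, 849, 797 and 2880 CPM on male and 3759 and 4303 CPM on female plates. *Fos* stood at 558, 52.0, 1.48 and 475 CPM on male and 748 and 752 CPM on female plates, so the male plates 2 and 3 were far below all others.

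Other cells of the same plates give the background. On male plates 2 and 3 the endothelial cells also had little, with sums of 2114 and 3146 CPM against 12132 CPM on male plate 1, and 8215 CPM on male plate 4. Yet on each of the 6 plates the Kupffer cells of clusters 1, 6 and 7 had the lowest sum of the groups with at least 5 cells there. Clusters 3 and 4, which the study also counts as Kupffer cells, were not among these groups. Cluster 2 held 9 sKC cells with Kupffer cell genes, all on male plate 1. On male plate 1 Kupffer cells had 3847 CPM and cluster 2, endothelial, mesenchymal and epithelial cells 15715, 12132, 19674 and 5213 CPM. On male plate 2 Kupffer cells had 849 CPM, and cluster 2, cluster 5 and endothelial cells 5499, 8012 and 2114 CPM. On female plate 2 Kupffer cells had 4303 CPM against 7174 CPM in endothelial and 12076 CPM in epithelial cells. The margin was smallest on female plate 1, with 3759 CPM in 185 Kupffer cells and 4876 CPM in 5 endothelial cells. On that plate *Fos*, *Dusp1*, *Egr1* and *Btg2* were each higher in the Kupffer cells, and *Jun* was lower.

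**Figure D5:**
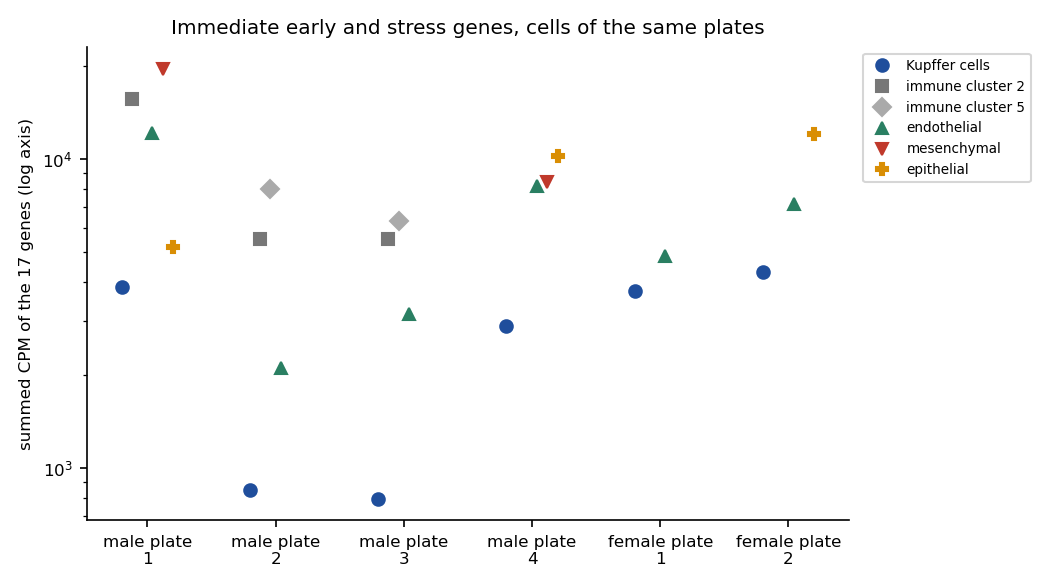
Summed CPM of 17 immediate early and stress genes, on a log axis, for each group with at least 5 cells on the 6 plates with at least 5 Kupffer cells. Symbols stand for cell groups. Among the groups shown, Kupffer cells of clusters 1, 6 and 7 (blue circles) have the lowest sum on each of these 6 plates. It runs from 797 CPM on male plate 3 to 4303 CPM on female plate 2.

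Female and male Kupffer cells were compared by size alone, since each sex was 1 pool and no plate held both. A gene is counted at a 2-fold difference, at least 10 CPM in the higher pool, and no overlap between male and female plates. Of 9650 genes, 1326 (13.7%) were higher in female and 308 (3.19%) higher in male cells. Within cluster 1 alone (108 male and 9 female cells) the counts were 530 and 192. The count for male cells was 643 without male plate 4 and 550 without female plate 1. Female cells were deeper, and with each cell thinned to 50000 counts the counts of genes were 1312 and 313. Female cells also had more genes detected at equal depth, and the part of this in the counts was not tested. *Xist*, the RNA of the inactive X chromosome, stood at 210 CPM in female and 0.19 CPM in male cells, and the Y-linked *Ddx3y* at 0.011 and 56.6 CPM, so the pools carried the sex of their labels. In endothelial cells, 97 of the 1326 genes higher in female and 96 of the 308 higher in male cells were also 2-fold different in the same direction. The share of all genes with such a difference in endothelial cells was not counted, so these 2 counts have no background.

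By this rule none of the 18 identity, 18 Fc receptor and lectin, and 21 scavenger genes was counted in either direction, although single members differed in how many cells held a count, as *Marco* did. Of 20 transcription factors, 4 were counted higher in female cells (*Irf1*, *Rxra*, *Cebpa* and *Klf4*), as were 3 of 17 stress genes, 3 of 18 cell cycle genes and 3 of 27 receptors. These shares lie near the 13.7% of all genes and set none of the lists apart. *Irf1* stood at 279, 124, 63.2 and 244 CPM on male and at 574 and 656 CPM on female plates. *Il10ra*, the receptor for IL-10, stood at 15.1, 98.5, 101 and 30.9 CPM on male and 384 and 419 CPM on female plates. Male and female plates did not overlap on either gene.

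Higher in male cells were *Fth1*, at 3182, 3117, 3510 and 1983 CPM on male and 1490 and 1926 CPM on female plates, and *Ly96*, the partner of TLR4, at 115, 57.7, 44.7 and 41.6 CPM on male and 12.7 and 13.9 CPM on female plates. The 10 genes with the highest ratios for male cells were *Mup20*, *Serpina1e*, *Fabp4*, *Gm23935*, *AA474408*, *Myl9*, *Gm33051*, *Rpl22l1*, *Mir6240* and *Mir6236*. *Mup20* and *Serpina1e* are products of hepatocytes. They stood at 42.8 and 82.5 CPM in male Kupffer cells, 403 and 1076 CPM in epithelial cells, and differed by sex in endothelial cells too (log2 differences of -5.01 and -5.64, female minus male). The 10 for female cells were *Xist*, *Tsix*, *Pwwp3a*, *Arrb1*, *Pcsk7*, *Tbc1d10b*, *Top3b*, *Kifc3*, *Pkd1* and *Ccnt1*, with *Tsix* antisense to *Xist*. Ribosomal protein genes took 3.04% of counts in male and 1.22% in female cells, and mitochondrial genes 0.969% and 0.332%.

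Clusters 1, 6 and 7 followed sex and plate. Cluster 1 held 108 male and 9 female cells, cluster 6 held 4 and 86, and cluster 7 held 1 and 163. Of the 164 cells of cluster 7, 161 came from female plate 1, and of the 90 cells of cluster 6, 67 came from female plate 2. All 3 carried the markers. *Clec4f* stood at 5248, 7435 and 4628 CPM in clusters 1, 6 and 7, *Vsig4* at 3069, 2403 and 2365 CPM, and *Marco* at 573, 756 and 924 CPM.

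Female plate 1 held 19 cells of cluster 6 beside 161 cells of cluster 7, which allows a look within 1 plate. These are descriptions, since the clusters were drawn from the same counts. *Ciita* stood at 155 CPM in cluster 6 and 32.3 CPM in cluster 7 on that plate, and *Nlrp3*, the sensor of the inflammasome, at 51.2 and 9.14 CPM. *C5ar1* stood at 72.8 and 264 CPM, *Cxcl13* at 37.1 and 221 CPM, *Cxcl10* at 1.43 and 87.5 CPM, and *Pparg* at 1.25 and 45.0 CPM. For these 6 genes, chosen after their values were seen, the direction was that of all cells of the 2 clusters. They are a few among many, since 1427 of 9644 genes stood 2-fold higher in cluster 6 and 2342 in cluster 7 within the plate, and 794 and 1101 of 9600 over all plates. It was not so for *Spp1*, at 104 CPM in cluster 6 and 2.34 CPM in cluster 7 over all plates but 0 and 1.38 CPM within the plate, nor for *Fcgr2b*, at 35.6 and 6.69 CPM over all plates but 0.71 and 6.40 CPM within it. The cells of cluster 6 on that plate had a median of 337252 counts, and those of cluster 7 451028 counts.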

How the data were processed

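Single cells from mouse liver were sequenced by Smart-seq2. The deposited values are raw counts per gene and cell, and the submitters' processing notes name bcl2fastq, Bowtie, Bowtie2, Subread, featureCounts and Seurat and the builds GRCm38 and mm10, without roles. The authors removed poor cells and, by an upper limit on genes, likely doublets, and no doublet caller was run. Classes, clusters and names of cells are the authors'.

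From these files, 46517 genes (3802 symbols rewritten from R's form) were kept and 92 ERCC spike-ins left out. Counts were summed over cells per pool, plate or cluster and scaled to CPM. Kupffer cells were compared with the other classes with edgeR 4.0.16 and limma 3.58.1 in R 4.3.3 (TMM, filterByExpr, quasi-likelihood test, Benjamini-Hochberg adjustment, all 8 sums in 1 fit). The study's own test takes cells as replicates and was not used. Where a group was 1 pool, no test was made, and log2 ratios used a pseudocount of 1 CPM. Intervals are exact binomial or Poisson intervals at 95%. Thinning to 50000 counts left out 13 cells, of which 1 was a female and 0 were male Kupffer cells. No values are shared between cells of different samples. Plates were read from the names of cells, numbered in this text, and described with at least 5 Kupffer cells. 2 Kupffer cells lay on smaller plates. DESeq2 1.42.0, RLE scaling, other filters and pseudocounts, a replicate block and left-out pools or plates were alternatives. Python 3.11.15, numpy 2.4.6, scipy 1.17.1, pandas 2.3.3 and matplotlib 3.10.9 were used, and the edgeR step was tested on simulated data.

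The text names genes of fixed lists, and for each comparison the 10 genes with the largest ratios that were counted in at least 50% of cells of the higher group, were higher in both pools (against the classes), and had no overlap between plates (between sexes). Some of these genes are not reported here. Members and lists were chosen with earlier results of these data known.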

Additional observations from a re-analysis of the deposited data

Results flagged for a closer look

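For 5 of the listed genes reported here the difference between Kupffer cells and the mean of the 3 other classes pointed in opposite directions in the male and the female pool, by at least 1 on the log2 scale in each. The difference between the pools was not tested, since each pool is 1 replicate. The log2 differences, male and female in this order, were 3.22 and -1.35 for *Cd79a*, 2.23 and -2.29 for *Ighm*, -1.48 and 1.77 for *Clec9a*, -2.30 and 1.44 for *Il6*, and 1.21 and -1.70 for *Ly96*. *Cd79a* and *Ighm* are genes of B cells, and the B cells of cluster 5 were all male, with 35 on male plate 2 and 15 on male plate 3 but 0 on male plates 1 and 4. Their part in these values was not tested. Of the 371 Kupffer cells, 83 held a count of *Cd79a* and 108 a count of *Ighm*, and the 5 cells with most counts held 43.5% and 54.5% of them. By pool, *Cd79a* was counted in 76 of 113 male and 7 of 258 female cells. *Clec9a* marks dendritic cells, *Il6* is an inflammatory cytokine and *Ly96* is the partner of TLR4.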

How the results depend on the processing

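None of the results recomputed changed its direction under an alternative. Fold changes of the 4 markers, *Cdh5* and the 10 top genes kept their call against the mean of the other classes under every alternative. The 10 top genes were chosen by size from the main fit and the markers name the cell type, so this says little. Calls of these single genes against each class, or against endothelial cells alone, were not compared between alternatives. Counts of genes moved more. The counts were, in the order higher and lower than the mean, higher and lower than each class, higher and lower than endothelial cells, 2529, 3634, 978, 1156, 2057 and 2538 with DESeq2 and 2701, 2859, 782, 972, 1569 and 2163 without a filter on low counts. Leaving out 1 pool at a time gave ranges of 1313 to 1811, 1104 to 1786, 273 to 474, 401 to 757, 395 to 994 and 793 to 1391. Against cluster 2 the counts above and below were 246 and 1210 with a pseudocount of 5 CPM, and 118 and 632 at a minimum of 50 CPM. The count above was 759 at a minimum of 1 CPM and 769 without community cluster 4, which was chosen after seeing the data. Against cluster 5 they were 870 and 1155 at 50 CPM. For genes higher in female cells the counts were 2764 at 1 CPM, 483 at 50 CPM and 530 in cluster 1 only, with 1650 to 1946 when 1 plate was left out, and for genes higher in male cells 192 in cluster 1 only and 363 to 643, where fewer plates had to be separate. Shares of cells with at least 20 counts were 98.7% for *Vsig4*, 96.0% for *Folr2* and 48.5% for *Marco*, and 69.5% of thinned cells held *Marco*. The cause of the other shifts was not tested. Leaving out community clusters 5 and 9 removed no Kupffer cell. Replicate numbers stand for sex and pair no animals known from the labels. The correlations of deviations between sums of 1 sex were 0.0882 to 0.141, and with the pool as a replicate block the counts were 1693 and 1744, 483 and 527, and 870 and 1214. With 1 male and 1 female pool, differences of sex, plate and animal cannot be told apart.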
